A study of Homo sapiens with 6 samples.

Results

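The transcripts described here are 10 long non-coding RNAs (lncRNAs) of ZR-75-1 cells, an oestrogen receptor-positive human breast cancer line: the nuclear transcripts MALAT1 and NEAT1, and the snoRNA host transcripts GAS5, SNHG1, SNHG5, SNHG6, SNHG8, ZFAS1, EPB41L4A-AS1 and DANCR. They were chosen by name, as the 10 of 60656 genes in the table of RNA sequencing (RNA-seq) counts whose Ensembl identifier carries one of these symbols. Parental cells, in which *RB1* had not been deleted, were cultured for 4 days with 500 nM abemaciclib, an inhibitor of the cell cycle kinases CDK4 and CDK6, or with an equal volume of its solvent, DMSO, in RPMI-1640 medium with serum. Each group had 3 libraries, which the study's methods describe as independent biological replicates. All 6 libraries come from 1 cell line at 1 dose and 1 time, so each result below describes that setting.

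MALAT1 and NEAT1 stay in the nucleus, where MALAT1 gathers in nuclear speckles, the stores of splicing factors, and NEAT1 is the scaffold on which paraspeckles form. The host transcripts are made for a different purpose. Small nucleolar RNAs (snoRNAs), which guide the chemical modification of ribosomal RNA, lie in their introns and are released as the introns are removed. What is left, the spliced host RNA, often reaches ribosomes in the cytoplasm and is removed there by nonsense-mediated decay, the pathway that degrades RNAs with early stop codons. Many hosts also begin with a run of pyrimidines, the 5′ terminal oligopyrimidine (5′TOP) start, which they share with the mRNAs of ribosomal proteins and which ties translation to growth signals. In growing cells, levels of a host RNA therefore depend on transcription, translation and decay together.

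Total counts per library were between 3317860 and 4013156, and 10863 genes had enough counts for a test. A level is given in CPM, a library's counts for a gene relative to its total and scaled between libraries by the TMM method, and 3 counts in a library corresponded to between 0.740 and 0.909 CPM. The luminal markers ESR1, GATA3, FOXA1, EPCAM, KRT8, KRT18 and KRT19 together reached 6662 to 7275 CPM with DMSO and 7564 to 8640 CPM with abemaciclib. KRT19 was the largest part, with a mean of 3131 CPM with DMSO and 4280 CPM with abemaciclib. The markers did not all move the same way: ESR1 went from a mean of 211 to 373 CPM and KRT18 from 689 to 543 CPM. The groups overlapped for GATA3, FOXA1, EPCAM and KRT8. Of 7 markers of leukocytes, fibroblasts, endothelium and basal epithelium, 6 had 0 counts in every library, and the remaining gene, COL1A1, had 10.1 to 15.8 CPM over the 6 libraries. The 3′ mRNA kit primes on runs of A and reads the end of a transcript, and longer transcripts do not by that gain more counts. Because priming on MALAT1 and NEAT1 need not be like priming on a regular poly(A) tail, levels were compared between groups for each gene and not between genes.

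The ends and starts of these RNAs bear on how they are counted and what they share. MALAT1 is a transcript of 1 exon at chr11:65497640-65508073 of hg38 on the + strand (10434 bases in GENCODE). Its mature 3′ end has no ordinary poly(A) tail: RNase P cuts off a small tRNA-like RNA, which RefSeq places at 65506117 to 65506174, and leaves an A-rich end. The 30 bases of hg38 just before that cut, at chr11:65506087-65506116, are shown because they are a place where the library primer can anneal, with their run of 13 A in capitals.
MALAT1 end: ttttctagcttAAAAAAAAAAAAAgcaaaa
Runs of at least 12 A inside the annotated exons were found once in MALAT1, 3 times in NEAT1 (the longest of 22 bases) and once in DANCR. The other 7 transcripts had 0.

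The starts of the hosts were read from hg38 at the GENCODE canonical start and from the RefSeq promoter sequences, and were searched on the transcript's strand for a C followed by at least 4 C or T, beginning within 10 bases of the start. At the GENCODE starts, a run began at the start itself in 2 of the 8 hosts (GAS5 and ZFAS1, 25.0%) and within 10 bases of it in 5 (62.5%). Of all 38912 GENCODE starts of protein-coding and lncRNA genes, 3.72% had such a run at the start and 32.0% within 10 bases, against 69.8% and 88.4% of the 86 starts of cytosolic ribosomal protein genes. At the RefSeq starts, of which 7 hosts had 1 here, it was at the start in 2 (SNHG5 and ZFAS1, 28.6%) and within 10 bases in 4 (57.1%), against 4.07% and 32.5% of all 35116 RefSeq starts. The 30 bases around the starts of GAS5, SNHG5 and ZFAS1 (10 before, 20 from the start) and around that of EPB41L4A-AS1, where none was found, are printed with the run in capitals. GAS5 is at chr1:173867970-173867999 on the − strand (GENCODE start), SNHG5 at chr6:85678714-85678743 on the − strand (RefSeq, GRCh38), ZFAS1 at chr20:49278632-49278661 on the + strand and EPB41L4A-AS1 at chr5:112160516-112160545 on the + strand, the last pair with the same start in both annotations.
GAS5: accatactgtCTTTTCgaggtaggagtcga
SNHG5: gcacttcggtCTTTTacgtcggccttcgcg
ZFAS1: gccattcgttCTTTCgcgtctgcggtgccc
EPB41L4A-AS1: tcatgaattctgtcgggtcccaaaatacgt
GENCODE and RefSeq place the starts of GAS5, SNHG1, SNHG5, SNHG8 and DANCR at different bases, so a run at the start depends on which is taken. A match describes the letters in this window only.

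To ask how the 10 transcripts responded to CDK4/6 inhibition, their counts were compared between abemaciclib and DMSO within a test of all genes. Of the 8 host transcripts, abemaciclib raised 4 in the quasi-likelihood test of edgeR, taken as an adjusted *P* (Benjamini–Hochberg) under 0.05 (GAS5, EPB41L4A-AS1, SNHG8 and SNHG5), 0 were lower, and 4 (SNHG1, SNHG6, ZFAS1 and DANCR) did not pass. MALAT1 and NEAT1 did not pass either. By the same rule 12.5% of all genes tested were higher and 13.3% lower, and of the 382 lncRNA genes tested 11.8% were higher and 6.02% lower. The median log2 fold change was 0.26 over the 8 hosts and 0.20 over MALAT1 and NEAT1, beside 0.04 over the lncRNAs and −0.00 over all genes. Values are relative to the RNA of the whole culture, in which fewer cells of a type and less RNA per cell cannot be told apart.

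**Figure D1:**
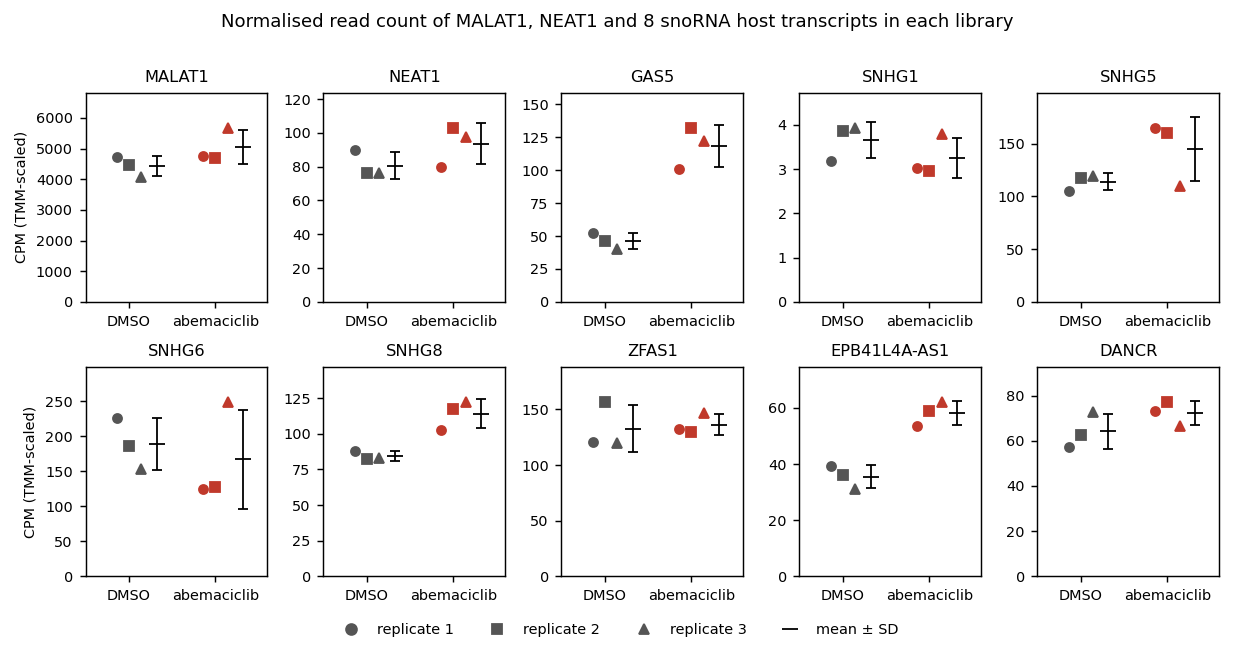
Normalised read count (CPM, TMM-scaled, linear axis from 0 and scaled for each panel) of the 10 transcripts in the 3 DMSO (grey) and 3 abemaciclib (red) libraries, with the mean ± SD of each group beside the points. GAS5 lay at 40.3 to 52.5 CPM with DMSO and 101.0 to 132.2 with abemaciclib, while the groups of MALAT1, NEAT1, SNHG1, SNHG5, SNHG6, ZFAS1 and DANCR overlapped.

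MALAT1 was counted 16301, 15038 and 13431 times in the DMSO libraries and 15742, 19037 and 21030 times in the abemaciclib libraries, which was between 0.405% and 0.552% of all counts. Its normalised level was 4728, 4467 and 4068 CPM with DMSO and 4763, 4697 and 5682 CPM with abemaciclib, a mean of 4421 ± 332 and 5047 ± 551 CPM (SD, n = 3 each). Abemaciclib replicate 3 was above the other 5 libraries, while abemaciclib replicate 2 was below DMSO replicate 1, so the groups overlapped. The log2 fold change was 0.19 (SE 0.09) with an adjusted *P* of 0.113 in edgeR, and it was positive in all 12 other fits, with adjusted *P* from 0.0743 to 0.396. At this depth counting error alone would give MALAT1 a coefficient of variation of 0.819% with DMSO and 0.733% with abemaciclib, and the observed values were 7.52% and 10.9%. Over the 12 genes within 1.5-fold of its mean CPM the median was 5.78% and 8.42%, and 25.0% of them with DMSO and 41.7% with abemaciclib varied as much as MALAT1.

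NEAT1 (chr11:65422774-65445540, + strand, 22743 bases in 1 exon for the long form) had 309, 257 and 251 counts with DMSO and 264, 418 and 361 with abemaciclib. The levels were 89.6, 76.3 and 76.0 CPM against 79.9, 103.1 and 97.5 CPM. Abemaciclib replicates 2 and 3 were above every DMSO library and abemaciclib replicate 1 was within the DMSO range. The log2 fold change was 0.22 (SE 0.13), with an adjusted *P* of 0.243 in edgeR. Its ratio to MALAT1 within a library, on the log2 scale, averaged −5.78 ± 0.08 with DMSO and −5.76 ± 0.22 with abemaciclib (SD, n = 3 each), a difference of 0.02 with overlapping groups. The short and long forms of NEAT1, of which only the long form builds paraspeckles, share 1 row of the table and were not separated.

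GAS5, named for its accumulation in growth-arrested cells, changed most among the 10 transcripts. It lies at chr1:173858559-173868882 on the − strand, and RefSeq places 11 snoRNA genes within it, 10 of the box C/D class, which guide methylation, and 1 of the box H/ACA class, which guide pseudouridine formation. Counts were 181, 155 and 133 with DMSO and 334, 536 and 451 with abemaciclib, or 52.5, 46.0 and 40.3 CPM against 101.0, 132.2 and 121.9 CPM. The lowest abemaciclib value lay well above the highest DMSO value. The mean rose from 46.3 ± 6.11 to 118.4 ± 15.9 CPM (SD, n = 3 each), a log2 fold change of 1.36 (SE 0.14) and a 2.56-fold level, with an adjusted *P* of 1.25e-08 in edgeR. It was called in all 12 other fits, with adjusted *P* of at most 2.41e-06. Within each library, the log2 ratio of GAS5 to MALAT1, which does not depend on scaling between libraries, was −6.49, −6.60 and −6.66 with DMSO and −5.56, −5.15 and −5.54 with abemaciclib. The groups of this ratio did not overlap, which in an exact two-sided permutation test of 3 against 3 libraries gives the smallest possible *P*, 0.1.

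On the opposite strand of GAS5, ZBTB37, a zinc-finger gene, starts 800 bases from the 5′ end of the annotated GAS5 span (173868882). The GENCODE start of GAS5 shown above is at 173867989, so this is not the distance between those 2 starts. ZBTB37 had a log2 fold change of −0.18 (SE 0.32, adjusted *P* = 0.731 in edgeR), and GAS5-AS1 had at most 8 counts in any library. The strand setting used for counting is not given in the sources used here, so reads from a stretch where GAS5 overlaps another gene could have been assigned to either or to neither, and their part in these values was not tested.

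EPB41L4A-AS1, which hosts the box H/ACA snoRNA SNORA13 and lies on the opposite strand to EPB41L4A at chr5:112160526-112164818 (+), rose in the same comparison. It had 136, 121 and 103 counts with DMSO and 177, 239 and 230 with abemaciclib. The means were 35.5 ± 4.14 and 58.2 ± 4.35 CPM (SD, n = 3 each), with no overlap between groups. Its log2 fold change was 0.71 (SE 0.16, adjusted *P* = 0.00104 in edgeR), and EPB41L4A-AS1 was called in all 12 other fits. EPB41L4A itself, which encodes a cytoskeletal protein, had 6 to 28 counts and a log2 fold change of 0.30 (SE 0.46, adjusted *P* = 0.698).

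SNHG8, host of the box H/ACA snoRNA SNORA24 at chr4:118278703-118285316 (+), had 304, 277 and 273 counts with DMSO and 340, 476 and 453 with abemaciclib. Its mean level was 84.4 ± 3.29 CPM with DMSO and 114.2 ± 10.2 CPM with abemaciclib (SD, n = 3 each), and no abemaciclib library reached down to the DMSO range. SNHG8 thus had a log2 fold change of 0.44 (SE 0.12, adjusted *P* = 0.00683 in edgeR), and the adjusted *P* was at most 0.0421 in the 12 other fits.

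SNHG5, host of the box C/D snoRNAs SNORD50A and SNORD50B at chr6:85650491-85678932 (−), was called on less even values. The counts were 361, 395 and 395 with DMSO and 546, 649 and 408 with abemaciclib, or 104.7, 117.3 and 119.6 CPM against 165.2, 160.1 and 110.2 CPM. Abemaciclib replicates 1 and 2 were above all DMSO libraries, and abemaciclib replicate 3 lay inside the DMSO range. In edgeR SNHG5 had a log2 fold change of 0.35 (SE 0.13, adjusted *P* = 0.0476). Without abemaciclib replicate 3 it was 0.52 with an adjusted *P* of 0.000176. The call was lost when any of the other 5 libraries was left out (adjusted *P* from 0.0754 to 0.22), in DESeq2 (0.0796) and when libraries were scaled by total counts alone (0.067).

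SNHG6, host of the box C/D snoRNA SNORD87 at chr8:66920561-66926398 (−), showed the reverse arrangement of libraries. The counts were 780, 629 and 504 with DMSO and 411, 519 and 922 with abemaciclib, or 226.2, 186.8 and 152.7 CPM against 124.3, 128.0 and 249.1 CPM. Abemaciclib replicates 1 and 2 were below all DMSO libraries and abemaciclib replicate 3 was above all of them. Over the 6 libraries the log2 fold change of SNHG6 was −0.17 (SE 0.17, adjusted *P* = 0.519 in edgeR), and without abemaciclib replicate 3 it was −0.58 with an adjusted *P* of 2.72e-05. The coefficient of variation of SNHG6 was 19.5% with DMSO and 42.5% with abemaciclib, beside medians of 6.71% and 8.45% over the 890 genes within 1.5-fold of its mean CPM. Of these genes 0.899% with DMSO and 0.225% with abemaciclib varied as much. Counting error alone would give SNHG6 3.96% with DMSO and 4.03% with abemaciclib.

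**Figure D2:**
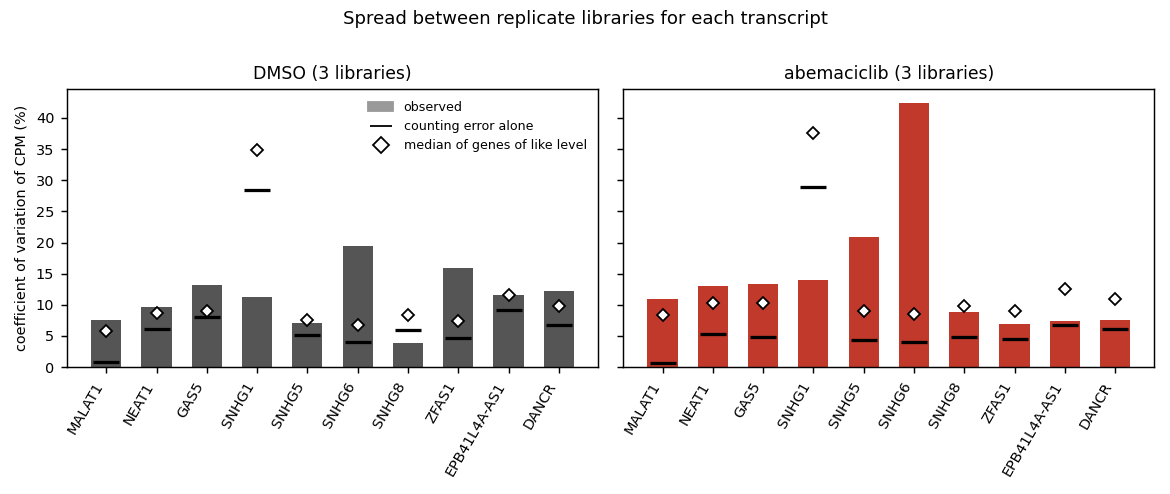
Coefficient of variation (%) of the CPM over the 3 libraries of a group for each transcript (bars), beside the value that counting error alone would give (black lines) and the median of genes within 1.5-fold of its mean CPM (white diamonds). SNHG6 reached 19.5% with DMSO and 42.5% with abemaciclib, and SNHG5 reached 20.9% with abemaciclib.

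The same library, abemaciclib replicate 3, was thus high for SNHG6 and low for SNHG5 among the treated libraries. The log2 ratio of SNHG6 to SNHG5 was 1.11, 0.67 and 0.35 in the DMSO libraries, −0.41 and −0.32 in abemaciclib replicates 1 and 2, and 1.18 in abemaciclib replicate 3. That library was also the highest of the 6 for MALAT1, but GAS5 and NEAT1 were both lower in it than in abemaciclib replicate 2. Its total of 3812100 counts lay between those of the other abemaciclib libraries.

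ZFAS1, host of SNORD12, SNORD12B and SNORD12C at chr20:49278178-49299600 (+), had 415, 528 and 397 counts with DMSO and 437, 525 and 544 with abemaciclib. Its mean was 132.5 ± 21.1 and 136.2 ± 9.40 CPM (SD, n = 3 each), the groups overlapped, and the log2 fold change was 0.04 (SE 0.12, adjusted *P* = 0.848 in edgeR). It changed sign to −0.03 without DMSO replicate 1 or DMSO replicate 3, and to −0.02 without abemaciclib replicate 3. ZNFX1, an RNA helicase gene on the opposite strand, starts 248 bases from the 5′ end of the annotated ZFAS1 span. It had a log2 fold change of 0.50 (SE 0.14, adjusted *P* = 0.00696). Its adjusted *P* was 0.0631 without abemaciclib replicate 3.

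DANCR, host of the box H/ACA snoRNA SNORA26 at chr4:52712325-52723623 (+), had 198, 210 and 240 counts with DMSO and 242, 313 and 246 with abemaciclib. The mean was 64.2 ± 7.79 and 72.3 ± 5.43 CPM (SD, n = 3 each), with overlapping groups. For DANCR the log2 fold change was 0.17 (SE 0.14, adjusted *P* = 0.395 in edgeR).

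SNHG1, at chr11:62851978-62855953 (−) with 9 snoRNA genes inside it, was counted least, with 11, 13 and 13 counts with DMSO and 10, 12 and 14 with abemaciclib. The log2 fold change was −0.17 with an SE of 0.49 (adjusted *P* = 0.848 in edgeR), so a change of the size seen for SNHG8 was not detectable at this depth. SLC3A2, which encodes the heavy chain of amino acid transporters, lies on the opposite strand. It starts 51 bases from the 5′ end of the annotated SNHG1 span, and fell from 461, 427 and 457 counts to 210, 285 and 247. Its log2 fold change was −0.99 (SE 0.12, adjusted *P* = 1.81e-07).

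**Figure D3:**
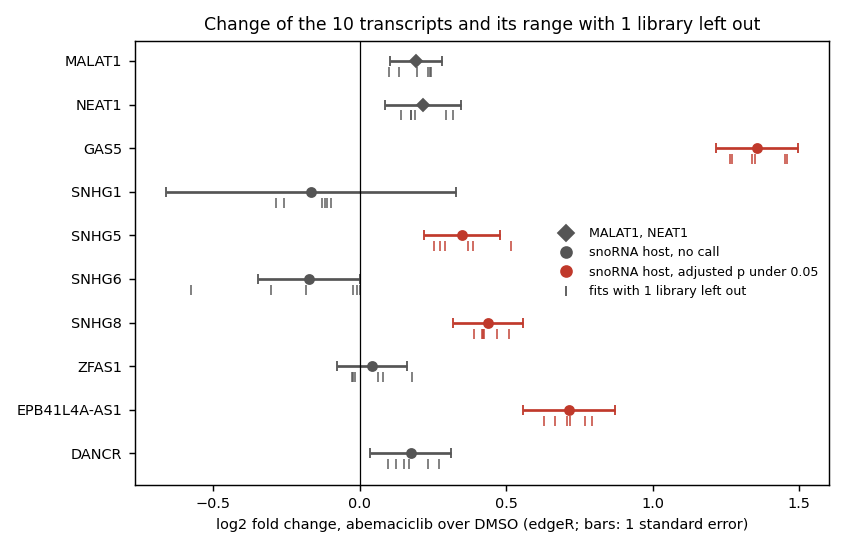
Log2 fold change of abemaciclib over DMSO for each transcript (diamonds for MALAT1 and NEAT1, circles for hosts, red where the adjusted *P* was under 0.05) with 1 standard error, and the same value with each of the 6 libraries left out in turn (vertical ticks). The ticks of GAS5 ran from 1.27 to 1.46, and those of SNHG6 from −0.58 to −0.00.

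To set the nuclear transcripts against the hosts without any scaling between libraries, the summed counts of MALAT1 and NEAT1 were divided by the summed counts of the 8 hosts in each library. The hosts summed to 2386, 2328 and 2058 counts with DMSO and to 2497, 3269 and 3268 with abemaciclib. The log2 ratio was 2.80, 2.72 and 2.73 with DMSO and 2.68, 2.57 and 2.71 with abemaciclib. The groups did not overlap, although DMSO replicate 2 and abemaciclib replicate 3 were nearly equal, and the difference of the means was −0.09. With GAS5 left out of the hosts the difference was 0.03, and with SNHG6 left out it was −0.24. The sign of the difference thus turned on whether GAS5, which rose most, was in the sum. MALAT1 made up most of the numerator (16301 of 16610 counts in DMSO replicate 1). For NEAT1 alone over the 8 hosts, the log2 ratio averaged −3.05 with DMSO and −3.13 with abemaciclib, and the groups overlapped.

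The ratio to MALAT1 was also taken for each host. The mean log2 ratio of EPB41L4A-AS1 to MALAT1 was −6.96 ± 0.06 with DMSO and −6.43 ± 0.11 with abemaciclib (SD, n = 3 each), and that of SNHG8 was −5.71 ± 0.08 and −5.46 ± 0.12. Like GAS5, neither overlapped between groups. The ratio of SNHG1, from 10 to 14 counts a library, was −10.24 ± 0.27 with DMSO and −10.60 ± 0.04 with abemaciclib, and its highest abemaciclib value (−10.55) was close to its lowest DMSO value (−10.53). For SNHG5, SNHG6, ZFAS1 and DANCR the ratios to MALAT1 overlapped between groups, with differences of 0.14, −0.42, −0.14 and −0.01.

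**Figure D4:**
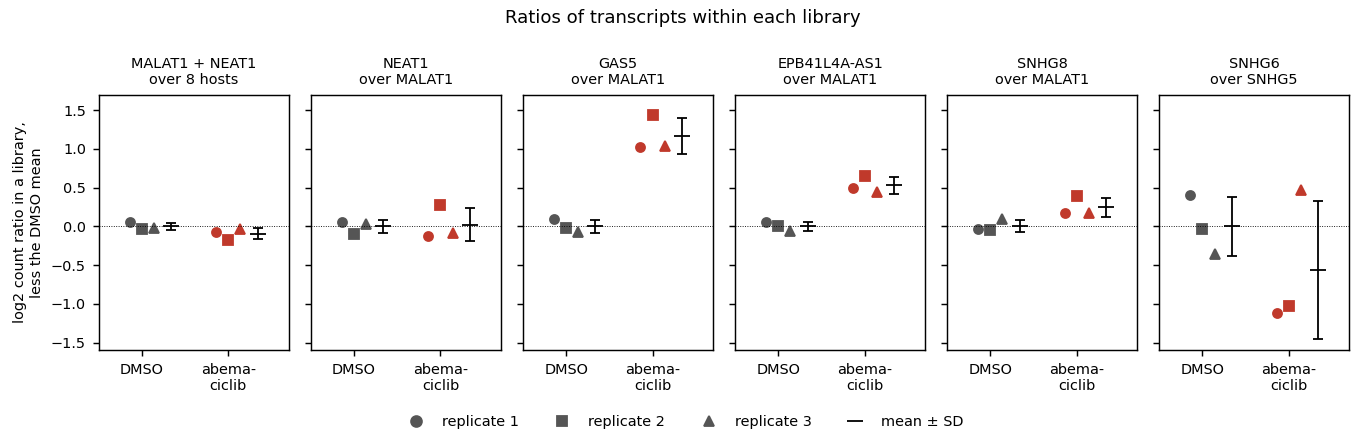
Log2 ratio of counts of the named transcripts within each library, less the mean of the DMSO libraries, for 3 DMSO (grey) and 3 abemaciclib (red) libraries, with the mean ± SD of each group. GAS5 over MALAT1 was 1.17 higher on average with abemaciclib, NEAT1 over MALAT1 0.02 higher, and SNHG6 over SNHG5 was high in abemaciclib replicate 3 alone among the treated libraries.

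At the GENCODE starts, a pyrimidine run began at the start itself in GAS5, called higher, and in ZFAS1, not called. At the RefSeq starts it did so in SNHG5, called higher, and in ZFAS1. In both annotations SNHG8, called higher, and DANCR, not called, had a run within 10 bases but not at the start. EPB41L4A-AS1, without a run in either annotation, was called higher. Whether the start of a host bears on its change was not tested. Among 14 tested translation genes with a 5′TOP start outside the ribosome, 4 were higher and 3 lower, with a median log2 fold change of 0.11. EIF3F, a subunit of an initiation factor, had 0.47 (SE 0.14, adjusted *P* = 0.0154) and EEF2, an elongation factor that is also a snoRNA host, had 0.42 (SE 0.09, adjusted *P* = 0.000454), while HNRNPA1, a splicing regulator, had −0.56 (SE 0.10, adjusted *P* = 8.84e-05) and NPM1, a nucleolar chaperone and snoRNA host, −0.42 (SE 0.10, adjusted *P* = 0.00203). The call of EIF3F was lost without DMSO replicate 2 (adjusted *P* = 0.103) and without abemaciclib replicate 3 (0.0887).

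Other snoRNA hosts moved in both directions. Of 21 further host lncRNAs, 12 had enough counts for a test, 3 were higher and 3 lower, around a median log2 fold change of −0.04. SNHG29 had a log2 fold change of 0.40 (SE 0.09, adjusted *P* = 0.00141) and SNHG9 0.61 (SE 0.17, adjusted *P* = 0.00738, or 0.116 without abemaciclib replicate 2). SNHG15, with 6 to 10 counts with DMSO and 20 to 36 with abemaciclib, was the third that rose, with 1.59 (SE 0.47, adjusted *P* = 0.0133), and it was named after its values were seen because its level was under 5 CPM. It did not pass without DMSO replicate 1 (0.0651) or abemaciclib replicate 2 (0.0789). SNHG19 fell by 1.25 on the log2 scale (SE 0.21, adjusted *P* = 2.89e-05), SNHG3 fell by 1.14 (SE 0.24, adjusted *P* = 0.000781) and SNHG25, also named after its values were seen, fell by 0.98 (SE 0.11, adjusted *P* = 2.67e-08). SNHG25 had 3747 to 4306 counts with DMSO and 1828 to 2441 with abemaciclib.

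Of the protein-coding snoRNA hosts outside the ribosome, 17 of 18 were tested, 1 (EEF2) was higher and 4 were lower, with a median log2 fold change of −0.03. RCC1, which marks chromatin for nuclear transport, had −0.51 (SE 0.17, adjusted *P* = 0.0237), but did not pass without DMSO replicate 1 (0.0544), DMSO replicate 2 (0.197) or abemaciclib replicate 2 (0.126). NOP56, a core protein of box C/D particles that is also on the list below, had −0.45 (SE 0.12, adjusted *P* = 0.00749).

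The snoRNAs themselves could not be assessed in these libraries, since the kit primes on runs of A and many had no row. None of those inside GAS5 matched a row. RefSeq places 29 snoRNA genes inside the 8 hosts, 15 of them matched a row of the table by their coordinates, and all 15 had 0 counts in all 6 libraries, which allows up to 3 counts in each. Among 18 tested mRNAs of proteins that bind or assemble snoRNAs, 2 were higher and 3 lower, around a median log2 fold change of −0.11. FBL, the methyltransferase of box C/D particles, fell by 1.01 on the log2 scale (SE 0.10, adjusted *P* = 2.36e-09), with NOP56 also lower as given above. SNU13, which binds the same particles, had 0.38 (SE 0.11, adjusted *P* = 0.0109) and NOLC1, an assembly factor, 0.32 (SE 0.11, adjusted *P* = 0.0341). SNU13 was not called without DMSO replicate 3 (0.0706) or abemaciclib replicate 1 (0.051), and NOLC1 was not called in 6 of 12 other fits, among them those without DMSO replicate 1, 2 or 3 or abemaciclib replicate 2.

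The mRNAs of factors of nonsense-mediated decay, which removes GAS5 and other spliced hosts, gave 1 higher and 4 lower of 14 tested. Their median log2 fold change was −0.06. UPF1, the helicase at the centre of the pathway, had −0.56 (SE 0.17, adjusted *P* = 0.0152), but did not pass without DMSO replicate 2 (0.0536), DMSO replicate 3 (0.0662) or abemaciclib replicate 3 (0.0717). MAGOH, of the exon junction complex, had −0.45 (SE 0.14, adjusted *P* = 0.0188) and was not called without DMSO replicate 2 (0.139) or abemaciclib replicate 2 (0.0672).

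The mRNAs of proteins of the bodies in which NEAT1 and MALAT1 reside were also read from the test. Protein levels are not measured by these libraries. Among the mRNAs of paraspeckle proteins, 8 of 16 fell and 1 rose, and their median log2 fold change was −0.48, while NEAT1 stood at 0.22 with no call. HNRNPH3, an RNA-binding protein, fell by 1.49 on the log2 scale (SE 0.19, adjusted *P* = 4.67e-07) and DAZAP1, also an RNA-binding protein, fell by 0.85 (SE 0.10, adjusted *P* = 2.62e-07). The core proteins SFPQ, with −0.74 (SE 0.09, adjusted *P* = 4.17e-07), and NONO, with −0.35 (SE 0.10, adjusted *P* = 0.00667), are named after their values were seen. PSPC1, on the same list and also named afterwards, had −0.04 (SE 0.18, adjusted *P* = 0.914 in edgeR) with overlapping groups. CIRBP, a cold-inducible RNA-binding protein, had 0.27 (SE 0.10, adjusted *P* = 0.0478), and 9 of 12 other fits did not call it, among them 5 of the 6 that left out a library (all but that without abemaciclib replicate 2).

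Among the mRNAs of nuclear speckle proteins, 8 of 16 fell and 0 rose. The median was −0.32 on the log2 scale beside the 0.19 of MALAT1. The splicing factors SRSF3, which fell by 1.14 on the log2 scale (SE 0.10, adjusted *P* = 4.11e-10), and SRSF7, which fell by 0.86 (SE 0.13, adjusted *P* = 1.28e-05), changed most. Among 12 other nuclear-retained lncRNAs 5 were tested, 1 rose and 0 fell, and the median was 0.41 on the log2 scale. The gene called was KCNQ1OT1, the antisense RNA of an imprinted cluster, with 119 to 122 counts with DMSO and 167 to 195 with abemaciclib and a log2 fold change of 0.46 (SE 0.16, adjusted *P* = 0.0289). Its call was lost in 7 of 12 other fits, among them each that left out a library except that without abemaciclib replicate 3, with adjusted *P* up to 0.0813.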

How the data were processed

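Per the labels and the study's methods, single-end reads of the 3′ libraries went through BBDuk (trimming), STAR 2.7.5b (alignment to hg38) and featureCounts 2.0.1 (GENCODE v35), and the authors deposited the resulting raw counts. From them, genes were filtered with filterByExpr, scaled by TMM and tested in R 4.3.3 with edgeR 4.0.16 (glmQLFit, glmQLFTest, Benjamini–Hochberg adjustment over 10863 genes, threshold 0.05), with no covariate. A standard error is the fold change divided by the square root of F. Total counts per library were 3317860 to 4013156, and intervals or limits from counts cover counting error only. Symbols matched 60445 of 60656 identifiers, and coordinates are from GENCODE v44. Alternatives were DESeq2 1.42.0, its size factors, total counts, no filter, at least 10 counts in every library, a replicate block and each library left out. The members and gene lists were chosen with earlier results of these data known. Genes named from a list are the 2 largest called rises and falls of those averaging at least 5 CPM, others as stated. Values for a list of proteins or factors are those of their mRNAs. The procedure was tested on simulated data. *RB1* knockout libraries were not analysed here. Some genes that met these rules are not reported here.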

Additional observations from a re-analysis of the deposited data

How the results depend on the processing

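Of 120 refits of the 10 transcripts' log2 fold changes, 108 kept direction and side of the threshold, and the exceptions were SNHG5 (call lost in 8), SNHG6 (called in 1) and ZFAS1 (sign changed in 3). Between 3 and 4 of the 10 were higher with any library left out, and 0 to 1 lower, the latter being SNHG6 without abemaciclib replicate 3. The ZFAS1 value ran from −0.03 to 0.18 with a library left out, with −0.0278, −0.0251 and −0.0164 below 0. With a library left out, ZBTB37 ran from −0.34 to 0.031 (above 0 without abemaciclib replicate 2 only) and EPB41L4A from −0.10 to 0.66 (below 0 without DMSO replicate 3 only). Deviations from the group means were not shared by libraries of the same replicate number (correlations of −0.04, 0.01 and −0.09 across genes). Whether those libraries were paired in the experiment was not established here. With the replicate block 3 of the 10 were higher, and SNHG5 had an adjusted P of 0.1 in edgeR. In all, 1139 genes were higher and 1280 lower with the block, against 1354 and 1442 without it. With the block 0 other nuclear-retained lncRNAs, 0 paraspeckle proteins and 1 snoRNP protein were higher. DESeq2 called 1216 genes higher and 1305 lower, and with a library left out 981 to 1412 were higher and 1132 to 1529 lower. The log2 ratio of MALAT1 and NEAT1 to the hosts differed by −0.09, by 0.029 without GAS5 in the sum and by −0.24 without SNHG6. Without a filter on low counts, the median was −0.10 for other snoRNA host lncRNAs and 0.022 for other nuclear-retained lncRNAs, of which 0 were higher, and 0 paraspeckle and 1 snoRNP proteins were higher. With total counts, or at least 10 counts in every library, 0 paraspeckle proteins were higher. With a library left out, the other snoRNA host lncRNAs had 1 to 4 higher and a median of −0.071 to 0.0026, protein-coding hosts 2 to 6 lower and a median of −0.13 to 0.0065, and other nuclear-retained lncRNAs 0 to 1 higher and a median of 0.23 to 0.48. Paraspeckle proteins had 0 to 1 higher and a median of −0.50 to −0.42, and nuclear speckle proteins 0 to 1 higher, 5 to 8 lower and a median of −0.33 to −0.26. The snoRNP proteins had 0 to 2 higher and a median of −0.17 to −0.10, decay factors 0 to 1 higher and 2 to 4 lower with a median of −0.16 to 0.03, and 5′TOP genes 2 to 5 higher and a median of 0.06 to 0.18. Where not given above, the cause was not tested. Depth limited SNHG1, and the strand setting of the counting limits GAS5, which overlaps genes on the opposite strand.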

Other observations

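None of the 15 host snoRNAs with a row was counted. However, 5 of the 991 snoRNA and scaRNA genes in the table had enough counts for a test, and 2 were lower with abemaciclib and 0 higher in edgeR. SCARNA22, a small guide RNA of Cajal bodies, had 97, 67 and 73 counts with DMSO and 8, 12 and 5 with abemaciclib, and fell by 3.35 on the log2 scale (SE 0.34, adjusted P = 1.15e-08). SNORD13, which takes part in ribosomal RNA acetylation, had 41, 60 and 61 counts with DMSO and 17, 15 and 13 with abemaciclib, and fell by 1.96 (SE 0.34, adjusted P = 6.62e-05). The mature forms have no regular poly(A) tail, and both were called in every other fit that tested them. SNORA12 had a log2 fold change of −1.08 (SE 0.42, adjusted P = 0.06), and SNORD89 and SNORD104 had −0.11 (SE 0.32) and −0.07 (SE 0.45).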
